A study of Mus musculus with 16 samples.

Results

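Olfr1110 is an odorant receptor gene of mouse chromosome 2, catalogued as MOR172-4 in the MOR172 family of receptors. It was found by its gene symbol in the platform annotation, which gave 1 probe set, TC0200003973.mm.2, among 19505 named genes and 1080 odorant receptors. The gene was picked with its differences between odor and vehicle and between the sorted fractions already known, so its levels are given as a description, with no test.

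Each mature olfactory sensory neuron transcribes 1 receptor gene, so the level of a receptor transcript in a pool of cells follows how many neurons chose it and how much each holds. Odorant binding opens a cyclic nucleotide-gated channel through the G protein Gnal and the adenylyl cyclase Adcy3, and repeated activity raises S100a5, a calcium-binding protein gene. In S100a5-tauGFP mice the S100a5 promoter drives a green fluorescent reporter, so GFP+ cells are neurons in which that promoter was active. A receptor stimulated by an inhaled odorant can therefore be sought by its enrichment in GFP+ cells.

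The 4 groups were GFP+ and GFP- cells from mice given 2-hexanone, a small ketone, and GFP+ and GFP- cells from mice given vehicle, which was filtered air. All 24 mice, of both sexes and 7 to 12 weeks old, carried the same reporter and were housed singly for 40 h in chambers fed with clean air (3.1 L per min). Stimulus pulses lasted 10 s and came every 20 min, beginning at 26 h. The olfactory mucosa of 3 mice made a pool, each of 8 pools was sorted into both fractions, and the 16 samples were run on Clariom S arrays, 4 per group. Different pools hold different animals, but both fractions of 1 pool come from the same mice. In such bulk samples fewer cells of a type and less RNA per cell cannot be told apart.

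The upstream sequence below belongs to the Olfr1110 gene model of this clustered family, which was linked to the probe set by gene symbol. It is the 250 bases before the annotated start of Olfr1110 in RefSeq, chr2:87140234-87140483 of GRCm38.p6, minus strand, written 5′ to 3′. Capitals mark the match to TAATNA, a core that homeodomain proteins such as Lhx2 bind and that receptor promoters often carry.

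Olfr1110: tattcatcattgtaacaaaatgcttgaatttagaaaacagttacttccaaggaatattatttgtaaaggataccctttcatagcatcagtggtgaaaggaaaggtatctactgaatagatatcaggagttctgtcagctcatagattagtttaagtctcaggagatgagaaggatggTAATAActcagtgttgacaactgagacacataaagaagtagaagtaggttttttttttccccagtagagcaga

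The match lies 73 to 68 bases before the start. On either strand, TAATNA was in 64.0% of 944 receptor windows of this length and in 24.3% of all 32851 windows. The core CCCNNGGG of sites for Ebf proteins, also searched on both strands and not overlapping that match, was in 11.8% of all windows and 2.75% of receptor windows, and these letters are not in the window of Olfr1110. Many receptor models begin at the coding start, so their windows need not be promoters. Neither count says anything about a factor's binding.

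The sort was checked first. S100a5 was higher in GFP+ cells by a log2 difference of 1.61 ± 0.25 SE with 2-hexanone and 1.38 ± 0.25 in vehicle (limma adjusted p = 9.83e-05 and 0.000514), with all 4 GFP+ arrays above all 4 GFP- arrays each time. All 7 mature neuron markers were above background on every array, and 1 of 7 with 2-hexanone and 2 of 7 in vehicle were higher in GFP+ cells. Over all 22206 probe sets 5.29% were called higher and 9.56% lower in GFP+ cells with 2-hexanone, and 5.83% and 9.86% in vehicle. Omp, the marker of mature neurons, averaged 19.45 ± 0.04 in GFP+ and 19.36 ± 0.11 in GFP- cells with 2-hexanone, and 19.38 ± 0.12 in GFP+ and 19.37 ± 0.09 in GFP- cells in vehicle (SD, n = 4), near the top of the scale. All 9 immune markers measured were lower in GFP+ cells in both treatments. Their mean log2 signal was 5.11 to 5.49 in GFP+ and 13.42 to 14.02 in GFP- arrays with 2-hexanone, and 4.69 to 5.54 in GFP+ and 11.93 to 14.81 in GFP- arrays in vehicle. With 2-hexanone, GFP+ cells were also lower in 5 of 5 microvillous, 5 of 7 sustentacular and 2 of 2 erythroid markers. They were lower too in 5 of 8 immature neuron and 3 of 6 basal and progenitor markers. In vehicle the immature neuron count was 6 of 8 and the others were equal. The basal and progenitor markers that passed were Mki67, Top2a and Neurog1, the last under background on every array. Krt5, Krt14 and Trp63 were under background on every array and did not pass, so basal cells were not measured by them.

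Olfr1110 had its higher signal in the GFP- fraction in both treatments, with a smaller gap between fractions after 2-hexanone. In GFP+ cells with 2-hexanone its log2 signal was 9.73, 10.25, 8.91 and 11.47 in replicates 1 to 4. In GFP- cells of the same pools it was 12.55, 11.90, 11.83 and 11.58. All 4 pools thus had more signal in the GFP- fraction, by the smallest margin in replicate 4. In GFP+ cells of vehicle pools it was 8.50, 8.12, 7.67 and 8.04. In GFP- cells of vehicle pools it was 11.92, 12.22, 11.59 and 11.51. Every GFP+ array with 2-hexanone lay above every GFP+ array of vehicle, and every GFP- array lay above every GFP+ array. The GFP- arrays of the 2 treatments overlapped.

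**Figure D1:**
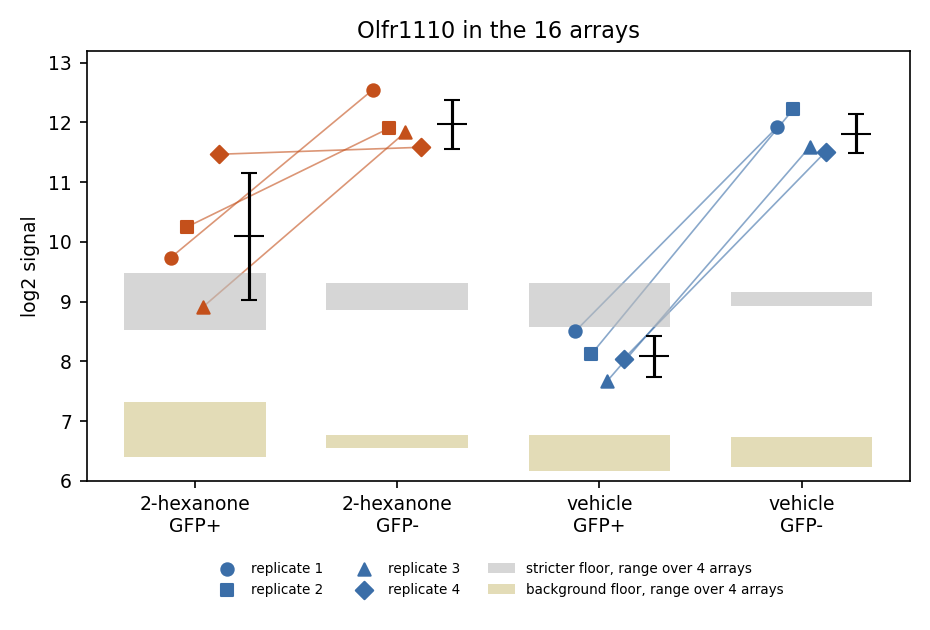
Log2 signal of Olfr1110 in GFP+ and GFP- cells with 2-hexanone (orange) and in vehicle (blue). Points are arrays, marker shapes are replicate numbers, lines join the 2 fractions of a pool, black bars are means ± SD of 4 arrays, and bands are the ranges of the background floors. GFP+ arrays sit at 8.91 to 11.47 with 2-hexanone and at 7.67 to 8.50 in vehicle, and GFP- arrays at 11.58 to 12.55 and 11.51 to 12.22.

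From low to high the group means were 8.08 ± 0.34 in vehicle GFP+, 10.09 ± 1.07 in 2-hexanone GFP+, 11.81 ± 0.33 in vehicle GFP- and 11.97 ± 0.41 in 2-hexanone GFP- cells (SD, n = 4 each). The last pair in that order did not differ beyond its spread. The GFP+ arrays with 2-hexanone were the most spread, and their SD ranked 79 of 1080 receptors in that group, where the median receptor SD was 0.53. Replicate 4 was the highest of them and replicate 3 the lowest.

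All 16 arrays measured Olfr1110 above the background floor, the highest of 23 antigenomic background bins on each array (6.16 to 7.33). A stricter floor, the 95th percentile of 5222 negative control probe sets, lay at 8.53 to 9.47. None of the 4 vehicle GFP+ arrays reached it, 3 of 4 GFP+ arrays with 2-hexanone did, and all GFP- arrays did. By that stricter measure the vehicle GFP+ level is only a bound.

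In GFP+ cells, Olfr1110 was 4.02-fold higher with 2-hexanone than in vehicle (log2 difference 2.01 ± 0.39 SE, n = 4 pools each). Groups that do not overlap in this direction were seen for 1.01% of all 22206 probe sets, and for 24 of 1080 receptors. The SE rests on a spread shared by all 4 groups. The SD of the GFP+ arrays themselves was 1.07 with 2-hexanone and 0.34 in vehicle. With arrays under the stricter floor raised to it, the difference was 1.09, or 2.12-fold. Without odor replicate 4 it was 1.55. The limma fit called 2 of 22206 probe sets in this contrast (0.00901%), both higher, and Olfr1110 was not one of them. The receptor ranked 3 of 1080 by size, after Olfr195 (3.35 ± 0.55) and Olfr1494 (2.81 ± 0.27) and before Olfr175 (1.38 ± 0.31), Olfr177 (1.20 ± 0.33) and Olfr1247 (1.19 ± 0.31). Olfr195 was partly under background in vehicle GFP+ cells, so its value is not a measured fold. From the 5th to the 95th percentile the receptors spanned -0.67 to 0.70.

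The GFP+ arrays of the 2 treatments also stood apart in sustentacular (supporting) cell markers. Of all the cell type lists above, only this one had GFP+ means that did not overlap between treatments. The mean log2 signal of the 7 markers was 8.13 to 8.57 in GFP+ arrays with 2-hexanone and 7.27 to 8.10 in vehicle, and 0 of 7 passed limma's threshold between them, with 2 of 7 at an unadjusted p below 0.05, as were 869 of all 22206 probe sets. Within the GFP+ arrays with 2-hexanone, the sustentacular mean was 8.54, 8.57, 8.26 and 8.13 in replicates 1 to 4. Olfr1110 stood at 9.73, 10.25, 8.91 and 11.47 in the same arrays. The part of these markers in the Olfr1110 difference was not tested. S100a5 averaged 16.72 ± 0.38 in GFP+ cells with 2-hexanone and 16.42 ± 0.41 in vehicle (SD, n = 4), and did not pass (0.31 ± 0.25 SE).

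In GFP- cells, Olfr1110 differed by 0.16 ± 0.39 SE between 2-hexanone and vehicle, which is within the spread of the arrays. Groups that do not overlap were seen here for 0.941% of probe sets in the higher direction and 0.833% in the lower. It ranked 305 of 1080 receptors, between Olfr460 (0.16 ± 0.37) and Olfr692 (0.15 ± 0.28). Without odor replicate 1 the difference was -0.04. The fit called 0 of 22206 probe sets here by limma, with 547 at an unadjusted p below 0.05.

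**Figure D2:**
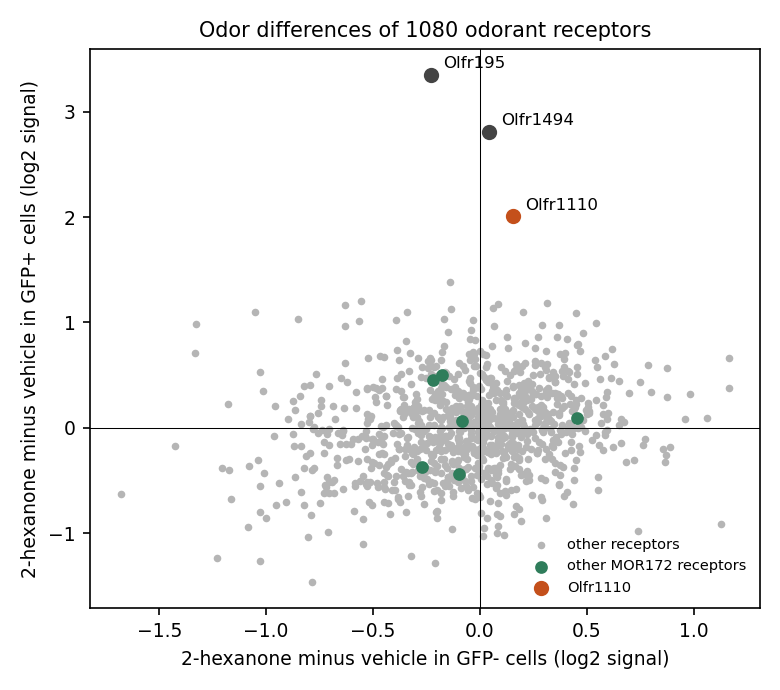
Log2 difference of 2-hexanone minus vehicle for 1080 receptors, in GFP- cells (horizontal) and GFP+ cells (vertical); each point is a receptor, and no array enters both axes. Olfr1110 stands at 2.01 in GFP+ and 0.16 in GFP- cells, below Olfr195 and Olfr1494. The 6 other MOR172 receptors stand between -0.44 and 0.50 in GFP+ cells, where Olfr1105, Olfr1109 and Olfr259 were mostly or wholly under background.

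The same values set the sort differences. With 2-hexanone, Olfr1110 was 3.67-fold lower in GFP+ than in GFP- cells (-1.88 ± 0.39 SE), and by pool the differences were -2.81, -1.65, -2.92 and -0.12 for replicates 1 to 4. In vehicle it was 13.3-fold lower in GFP+ cells (-3.73 ± 0.39), and by pool the differences were -3.42, -4.11, -3.91 and -3.47. Every 2-hexanone pool had a smaller gap than every vehicle pool, and replicate 4 of 2-hexanone had almost none. Groups of 4 that do not overlap, lower in GFP+, were seen for 10.6% of probe sets with 2-hexanone and 10.0% in vehicle, and higher in GFP+ for 9.40% and 9.01%. Against the stricter floor Olfr1110 was at least 6.74-fold lower in GFP+ cells of vehicle pools. From the highest difference down it ranked 900 of 1080 receptors with 2-hexanone and 999 in vehicle, against receptor medians of 0.48 and 0.41. Its nearest receptors in rank were Olfr435 (-1.86 ± 0.45) and Olfr1313 (-1.88 ± 0.50) with 2-hexanone, and Olfr1208 (-3.72 ± 0.46) and Olfr1198 (-3.78 ± 0.36) in vehicle. Immune, microvillous and immature neuron markers are lower in the same GFP+ arrays, and their part in the sort difference of Olfr1110 was not tested.

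The gap between fractions was smaller by 1.85 ± 0.54 SE with 2-hexanone, an SE that leaves out the pairing within pools. The pool differences had an SD of 1.31 with 2-hexanone and 0.33 in vehicle. Pools that do not overlap in the same direction as Olfr1110 were seen for 1.19% of all probe sets and for 21 of 1080 receptors. With the stricter floor the change was 0.93, and without odor replicate 4 it was 1.27, with the sort difference in odor then at -2.46. Limma called 2 of 22206 probe sets for this change (0.00901%), both higher, and 0 with the pool as a fixed block (960 at an unadjusted p below 0.05). Olfr1110 was not among those 2. It ranked 7 of 1080 receptors, between Olfr532 (1.89 ± 0.54) and Olfr531 (1.80 ± 0.65). This change and the other differences of Olfr1110 share arrays, so they are not separate evidence.

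The relatives of Olfr1110 were chosen by family name, not by level. MOR172 has 6 other members, all on the arrays. Olfr1105, Olfr1106, Olfr1107, Olfr1109 and Olfr259 are its 5 nearest receptor genes on one side, and Olfr1052 lies farther off on the same chromosome. With 2-hexanone 3 of 6 were higher and 1 lower in GFP+ than in GFP- cells by limma, and the same counts held in vehicle. Among all probe sets the called shares were 5.29% higher and 9.56% lower with 2-hexanone, and 5.83% and 9.86% in vehicle. Over all 1080 receptors 36.2% were higher and 21.8% lower with 2-hexanone, and 36.0% and 22.1% in vehicle.

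Olfr1052 was above background on all 16 arrays. It averaged 10.12 ± 0.38 in GFP+ and 7.73 ± 0.35 in GFP- cells with 2-hexanone, and 10.56 ± 0.23 in GFP+ and 7.83 ± 0.56 in GFP- cells in vehicle (SD, n = 4). It was 5.24-fold higher in GFP+ cells with 2-hexanone and 6.64-fold higher in vehicle (limma adjusted p = 2.11e-06 and 4.06e-07). Its GFP+ and GFP- arrays did not overlap, as for 9.40% of all probe sets in this direction with 2-hexanone and 9.01% in vehicle. Its direction was the opposite of that of Olfr1110.

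Olfr1106 was 3.08-fold higher in GFP+ cells with 2-hexanone and 2.78-fold higher in vehicle (adjusted p = 0.00156 and 0.0036 by limma). Olfr1105 passed too (2.14 ± 0.38 and 2.24 ± 0.38), but of its 16 arrays only 1, a vehicle GFP+ array, lay above background, so no fold is given. Olfr1109, the lower relative, was at least 1.60-fold lower in GFP+ cells with 2-hexanone (adjusted p = 9.50e-05 by limma). In vehicle it was at least 1.41-fold lower (adjusted p = 0.000495 by limma). No GFP+ array measured Olfr1109 above background, against 3 of 4 GFP- arrays with 2-hexanone and 2 of 4 in vehicle. Olfr1107 (0.64 ± 0.32 with 2-hexanone and -0.03 ± 0.32 in vehicle) and Olfr259 (1.18 ± 0.52 and 0.50 ± 0.52) did not pass. Only 1 array of Olfr259, a vehicle GFP+ array, lay above background.

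Between 2-hexanone and vehicle, 0 of 6 relatives passed limma's threshold in GFP+ or GFP- cells, or for the change of the sort difference. At an unadjusted p below 0.05 there were also 0 of 6 in each of these. The calls over all 22206 probe sets were 2 in GFP+ cells, 0 in GFP- cells and 2 for the change. At an unadjusted p below 0.05 all probe sets gave 869, 547 and 650. In GFP+ cells the differences of the 6 relatives ran from -0.44 to 0.50 (median 0.08, against 0.00 over all receptors and 2.01 for Olfr1110). In GFP- cells they ran from -0.27 to 0.45. Olfr1109 was under background on every GFP+ array, and Olfr1105 and Olfr259 on all but 1, so their GFP+ differences are not measured folds. Olfr1105 and Olfr259 were also under background on every GFP- array. Probe sequences of the family were not used here, so cross-hybridisation between members was not tested.

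On the other side of Olfr1110 the 5 nearest receptor genes belong to other families. With 2-hexanone its next neighbour, Olfr1111, stood at least 7.14-fold higher in the GFP+ fraction (4.10 ± 0.51 SE, limma adjusted p = 9.13e-06). In vehicle its difference was 3.63 ± 0.51 (adjusted p = 3.80e-05 by limma), and 9.61-fold with the 2 of 4 GFP- arrays under background raised to the floor. Olfr1113 (1.15 ± 0.37 and 1.45 ± 0.37) and Olfr1115 (1.41 ± 0.38 and 1.28 ± 0.38) were also higher with 2-hexanone and in vehicle, so 3 of 5 were higher and 0 lower in each. Among all 1080 receptors the higher share was 36.2% with 2-hexanone and 36.0% in vehicle, and the lower share 21.8% and 22.1%. Among all probe sets the higher share was 5.29% and 5.83%, and the lower share 9.56% and 9.86%. Olfr1113 had a single GFP+ array and no GFP- array above background per treatment, so no fold is given. With its arrays raised to the background floor its differences were 0.20 with 2-hexanone and -0.087 in vehicle. Those values mostly follow the floors of the arrays, so no direction is read from them. Its 2-hexanone call held without odor replicate 3 and ended when any other pool was left out (adjusted p = 0.0502 to 0.267 by limma), and its vehicle call ended without vehicle replicate 2. Olfr1115 lost its 2-hexanone call without odor replicate 3 or 4 and its vehicle call without vehicle replicate 3. Without odor replicate 4 only Olfr1111 passed with 2-hexanone. Olfr1112 (-0.40 ± 0.33 and -0.41 ± 0.33) and Olfr1116 (0.47 ± 0.35 and 0.13 ± 0.35) did not pass. Between 2-hexanone and vehicle 0 of 5 passed in either fraction by limma, with 1 of 5, Olfr1116, at an unadjusted p below 0.05 in GFP+ cells and 0 in GFP- cells. Of all 1080 receptors, 85 in GFP+ cells and 58 in GFP- cells were below it.

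**Figure D3:**
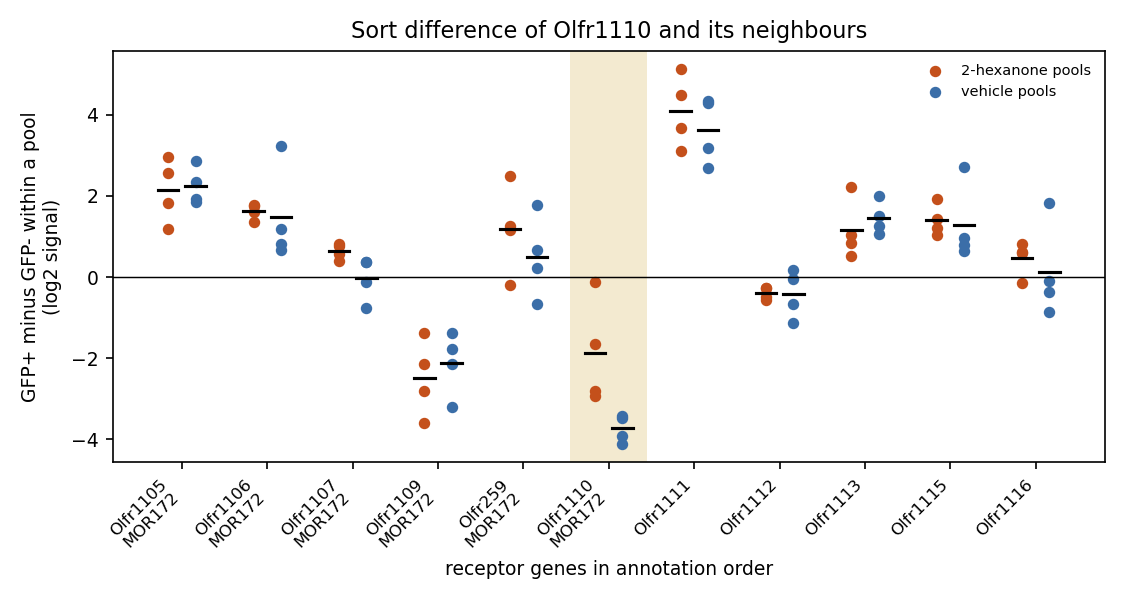
GFP+ minus GFP- log2 signal within each pool for Olfr1110 (shaded) and the 5 nearest receptor genes on each side, in annotation order; points are pools with 2-hexanone (orange, left) and vehicle (blue, right), and bars are means of 4. The 2-hexanone pools of Olfr1110 lie at -2.92 to -0.12 and its vehicle pools at -4.11 to -3.42, while Olfr1111 beside it lies at 3.11 to 5.12 and 2.70 to 4.33.

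The genes most like Olfr1110 over the 16 arrays all lie on other chromosomes. By Pearson r these were Olfr117 (0.923), Olfr1428 (0.921), Olfr1491 (0.918), Olfr195 (0.910) and Olfr391 (0.909). Among other genes they were Dsc2, a desmosomal cadherin (0.911), Ppp3r1, the regulatory subunit of calcineurin (0.904), Nrep (0.894), Gcnt1, a glycosyltransferase (0.892), and Stard13 (0.892). The arrays share the sort and 8 pools, and r over 16 arrays in 4 groups mostly follows the fraction, so no test is given. By the distance between group means, each gene centred on its own mean, the closest receptors were Olfr1428 (0.33), Olfr603 (0.39), Olfr417 (0.46), Olfr1489 (0.47) and Olfr11 (0.49). Olfr1428 led on distance and was near the top on r. It averaged 11.37 ± 0.75 in GFP+ and 13.56 ± 0.42 in GFP- cells with 2-hexanone, and 10.28 ± 0.87 in GFP+ and 13.36 ± 0.41 in GFP- cells in vehicle (SD, n = 4). Olfr1491 and Olfr391 are near or under background, with group means from 4.03 to 6.48 and from 3.92 to 7.40, as are Stard13, from 2.75 to 3.83, and Dsc2, from 4.26 to 6.19. Gcnt1 was under background in GFP+ cells, at means of 4.91 with 2-hexanone and 4.14 in vehicle. Olfr603, Olfr417 and Olfr1489 were near or under background in vehicle GFP+ cells, at means of 6.11, 5.76 and 5.49. With 2-hexanone, Olfr417 and Olfr1489 were also near or under it in GFP+ cells, at 6.63 and 6.22. Of the MOR172 relatives, Olfr1109 was the most alike (r = 0.762, rank 173 of 1079) and Olfr1052 the least (r = -0.879, rank 1075).

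**Figure D4:**
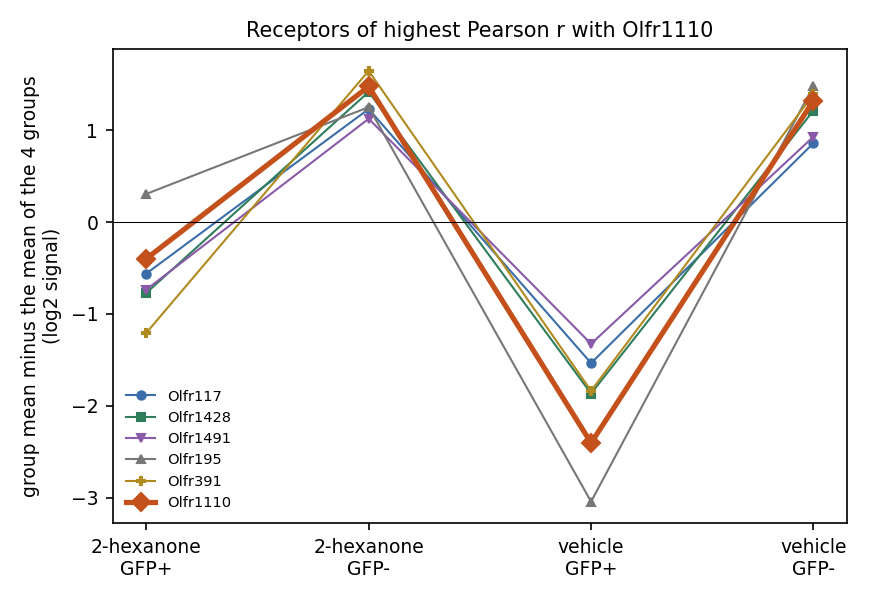
Group means of Olfr1110 and the 5 receptors of highest Pearson r with it over 16 arrays, each minus the mean of its 4 groups (log2 signal); points are means of 4 arrays, and lines only link the groups of a gene. All 6 are lowest in vehicle GFP+ cells, and Olfr195 has the largest difference between its GFP+ groups (3.35, against 2.01 for Olfr1110).

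Genes tied to receptor signalling, to its ending or to receptor transport were described from a list of 20 partner genes, of which 18 were measured. With 2-hexanone 3 were higher and 1 lower in GFP+ than in GFP- cells. In vehicle 4 were higher and 1 lower. The shares over all probe sets were 5.29% higher and 9.56% lower with 2-hexanone, and 5.83% and 9.86% in vehicle. The higher ones were the phosphodiesterase Pde1c (1.10 ± 0.18 with 2-hexanone and 0.94 ± 0.18 in vehicle), the phosphodiesterase Pde4a (0.82 ± 0.18 and 0.68 ± 0.18), the chloride channel Ano2 (0.68 ± 0.18 and 0.64 ± 0.18) and, in vehicle alone by the threshold, Adcy3 (0.41 ± 0.14 and 0.50 ± 0.14). The change of its sort difference, -0.09 ± 0.20, did not pass. Ano2 lost its 2-hexanone call without odor replicate 2 or 4. Ano2 and Pde4a lost their vehicle calls without vehicle replicate 2 or 4, and Adcy3 without vehicle replicate 1, 2 or 4. The lower one, the receptor kinase Grk3, was under background in both fractions. The receptor chaperones Rtp1 (0.16 ± 0.21 and 0.13 ± 0.21) and Rtp2 (0.49 ± 0.25 and 0.36 ± 0.25) and the G protein Gnal (0.06 ± 0.15 and 0.10 ± 0.15) did not pass. The vehicle count fell to 2 of 18 without vehicle replicate 2 or 4, and to 3 when the fit held vehicle arrays alone. With arrays centred on their medians the count was 15 of 18 in each treatment. That centring moved the median sort difference of all probe sets to 0.49 with 2-hexanone and 0.50 in vehicle, from 0.14 in both. Calls over all probe sets rose with it, as given further below, so the 15 of 18 is not particular to the list. Between 2-hexanone and vehicle 0 of 18 passed limma's threshold in either fraction, and 0 of 18 had an unadjusted p below 0.05. Of all 22206 probe sets, limma called 2 in GFP+ and 0 in GFP- cells, with 869 and 547 at an unadjusted p below 0.05.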

How the data were processed

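The authors deposited 1 log2 signal for each probe set of a Clariom S mouse array. The submitters' processing notes name Affymetrix Expression Console, and the labels give 50 to 100 ng of RNA as input. How probes were summarised, and on which build, is not stated. Values reach 19.81, and any transformation after scanning is not stated, so the size of differences and folds holds for the deposited scale alone. Of 28846 rows 6640 controls were left out and 22206 were tested. A platform annotation named 19505 genes. A gene with several probe sets was represented by that of highest mean. By Entrez ID 19572 probe sets matched the RefSeq gene table of GRCm38.p6, which gave family names and gene order.

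Groups and replicate numbers came from titles. limma 3.58.1 in R 4.3.3 (lmFit, eBayes) fitted 4 group means to 16 arrays (12 residual degrees of freedom), adjusted by Benjamini-Hochberg over all probe sets, with a threshold of 0.05, and was tested on simulated data. Python 3.11.15 and matplotlib 3.10.9 drew the plots. Where a dim group lay under its background floor, folds are bounds against that floor ("at least"). No p is given for Olfr1110. It, its relatives and the lists were chosen with earlier results of these data known. A planned ranking of relatives by protein identity was replaced by the MOR172 family name, since protein sequences were not used here.

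Named genes were Olfr1110, S100a5, Omp, the MOR172 members, the receptors from Olfr1105 to Olfr1115 and 5 genes on each side, the 5 most alike per measure, receptors next in rank, and list members that passed with up to 3 that did not. The fractions of a pool share mice, since the labels give 24 mice in pools of 3 for 8 pairs of samples. Correlations of their deviations from group means ran between 0.07 and 0.43 for odor pools and between 0.01 and 0.35 for vehicle pools. Alternatives were quantile normalization, arrays centred on medians, the dimmest 20% left out, a trended robust prior, array weights, the pool as a block, the replicate number as one, a fit restricted to the compared arrays, a stricter floor, and each pool left out. The number of arrays limits the precision. No 2 arrays held identical values.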

Additional observations from a re-analysis of the deposited data

Results flagged for a closer look

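Of 132 groups of 4 arrays checked over 33 named genes, 5 held an array far from the other 3 of its group, and chance gives this in about 1 of 20 groups. None of the 5 concerned Olfr1110. Among vehicle GFP+ arrays the lowest Omp value was 19.19, with the nearest at 19.42, and the highest Olfr1491 value was 4.79, with the nearest at 3.83. Among 2-hexanone GFP- arrays the lowest Gcnt1 value was 7.02, with the nearest at 7.51, and the highest Adcy3 value was 17.7, with the nearest at 17.5. Among vehicle GFP- arrays the highest Ano2 value was 17.4, with the nearest at 17.0.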

How the results depend on the processing

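The sort differences of Olfr1110 and its odor difference in GFP+ cells kept their direction under every alternative run. With arrays under the stricter floor raised to it, they were 1.09 for odor in GFP+ cells, -2.75 for the sort in vehicle and 0.93 for the change of the sort difference. Leaving out 1 pool at a time, the ranges were 1.55 to 2.40 for odor in GFP+ cells, -2.46 to -1.53 for the sort in odor, -3.83 to -3.60 for the sort in vehicle and 1.27 to 2.20 for the change. Odor in GFP- cells ran from -0.038 to 0.29, and was -0.038 without odor replicate 1.

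The count of probe sets called for odor in GFP+ cells, 2, was 5 with the replicate number as a replicate block and 1 with only the arrays compared, and 2 to 3 without 1 pool. In GFP- cells 1 was called, against 0, with quantile normalization, the trended robust prior, array weights or the replicate number as a block. Same-numbered odor and vehicle arrays had deviations correlated at 0.03 to 0.42, and 7 of 8 odor arrays correlated best with their own number, a hint from the data and not from the design. The change of the sort difference gave 2 calls, 0 with the pool as a fixed replicate block, and 0 to 1 without 1 pool. With arrays centred on their medians, 10258 probe sets were called for the sort in odor (8534 higher and 1724 lower, against 1175 and 2124) and 10736 in vehicle (8986 and 1750, against 1295 and 2189), as the median over all probe sets moved to 0.49 and 0.50, against 0.14 in both. Quantile normalization gave 1855 higher and 2010 lower in odor, and 1972 and 2051 in vehicle. The partner list had 15 calls in each treatment with arrays centred on their medians, 3 in vehicle with only the arrays compared, and 2 to 5 in vehicle without 1 pool. The 5 neighbours outside MOR172 had 1 to 2 calls in odor without 1 pool. The pool as a replicate block changed no other call described here. The small number of arrays and the stricter floor, which no vehicle GFP+ array reached for Olfr1110, limit these values.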

Other observations

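In GFP+ cells with 2-hexanone, Olfr195, a MOR184 receptor, ordered the extremes of the arrays as Olfr1110 did. Its log2 signal was 8.81, 8.76, 7.88 and 10.18 in replicates 1 to 4, with replicate 4 highest and replicate 3 lowest, against 6.46, 4.06, 4.62 and 7.07 in vehicle GFP+ arrays. Olfr1494, a MOR266 receptor, did not share that order, at 10.13, 11.00, 10.22 and 10.45 with 2-hexanone, against 7.97, 8.23, 6.88 and 7.47 in vehicle. Over all 1080 receptors the median deviation of replicate 4 from its group mean was -0.13, against 1.38 for Olfr1110, and 0.463% of receptors deviated upward by more there. These arrays were singled out after their values were seen, and nothing was tested.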
